A study of Mus musculus with 8 samples.

Results

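The 10 endothelial marker genes Cldn5, Ramp2, Tie1, Emcn, Plvap, Nos3, Pecam1, Cdh5, Kdr and Tek were examined in epididymal fat of polygenic obese mice. They were chosen by name, with earlier results of these data known. A probe counted when the probe annotation of the array named exactly 1 of these genes. Each gene had 1 such probe, so the set held 10 of 22393 probes and 10 of the 16504 genes with a named probe. On each array a pool from mice on conjugated linoleic acid (CLA), a group of isomers of linoleic acid, was hybridised together with a control pool from mice on linoleic acid (LA). There were 4 arrays at day 5 of the trial and 4 at day 14. Each RNA was a pool from either 4 or 5 mice. Strain, sex, age and dose of these polygenic obese mice, a background that both diets shared, were not given in the sources used here. The dye of the CLA pool was Cy5 for arrays 1 and 2 and Cy3 for arrays 3 and 4, at both days. Nothing in the labels said whether arrays shared pools, so the p-values rest on a spread that may be technical in part.

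Endothelial cells line blood vessels, and in fat they form the capillaries through which fatty acids, hormones and immune cells reach the adipocytes. Neighbouring cells are sealed by tight and adherens junctions, and their survival and sprouting depend on receptor tyrosine kinases for vascular endothelial growth factor (VEGF) and for the angiopoietins. They also make nitric oxide, which relaxes the vessel wall, and carry coat and diaphragm proteins that set how readily molecules pass. The 10 genes cover these roles: Cldn5, Cdh5 and Pecam1 at cell contacts, Kdr, Tie1 and Tek as receptor kinases, Ramp2 as a co-receptor of the vessel peptide adrenomedullin, Nos3 as the nitric oxide synthase, and Plvap and Emcn at the cell surface.

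All values below are log2 ratios, read as CLA over LA. This direction is likely and not stated: CLA is the diet labelled as the treatment. Swapped arrays appeared to have been turned already. Of the probes without a gene symbol, 458 exceeded 1 in size on all 8 arrays as deposited, and for 458 of them the sign was negative wherever CLA was in Cy5 and positive wherever it was in Cy3. That bears only on turning. If the deposited ratios were LA over CLA, every sign below would be reversed. The log base was inferred from the size of the values and taken to be 10. If they were log2 already, each log2 value here is 3.32 times too large while p-values stand. An array gives a ratio and no level, so the genes could not be ranked by abundance and the tissue label could not be checked by marker levels. Fewer endothelial cells and less RNA per endothelial cell cannot be told apart in whole tissue.

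For 5 of the 10 genes a promoter window, from 250 bases before the transcription start to 50 after it, was available from RefSeq (GRCm38.p6): Cldn5, Emcn, Kdr, Tek and Tie1. The 250 bases before the start are shown for Cldn5 and Tie1, which had the lowest day 14 ratios among these genes, and for Emcn, which had the lowest at day 5. They lie at chr16:18776597-18776846 on the plus strand, chr4:118489850-118490099 on the minus strand and chr3:137340828-137341077 on the plus strand. Capitals mark AGGAAG on either strand, a form of the motif bound by ETS factors, the family that includes the endothelial regulators ERG and FLI1.
Cldn5: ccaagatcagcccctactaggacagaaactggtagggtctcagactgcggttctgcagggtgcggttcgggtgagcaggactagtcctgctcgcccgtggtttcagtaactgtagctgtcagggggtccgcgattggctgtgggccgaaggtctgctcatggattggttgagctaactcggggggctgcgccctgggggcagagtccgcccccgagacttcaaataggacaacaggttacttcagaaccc
Tie1: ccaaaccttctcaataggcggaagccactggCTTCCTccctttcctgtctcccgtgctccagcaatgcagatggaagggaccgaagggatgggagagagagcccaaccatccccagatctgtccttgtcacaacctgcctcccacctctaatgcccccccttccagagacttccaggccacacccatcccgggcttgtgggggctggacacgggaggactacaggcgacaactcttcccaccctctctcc
Emcn: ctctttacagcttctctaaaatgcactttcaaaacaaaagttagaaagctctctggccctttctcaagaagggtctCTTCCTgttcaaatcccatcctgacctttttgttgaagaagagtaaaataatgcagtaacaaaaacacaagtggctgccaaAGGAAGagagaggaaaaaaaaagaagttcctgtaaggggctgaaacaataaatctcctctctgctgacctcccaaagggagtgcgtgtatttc

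In Emcn the matches to AGGAAG began 174 and 93 bases before the start, and in Tie1 they began 219 bases before and 33 bases after it. This motif was in 2 of the 5 windows and in 35.4% of the 32851 windows of the RefSeq table. The other ETS form searched, CCGGAA, was in the Kdr window (153 bases before the start) and in 14.9% of all windows. Either form was in 3 of the 5 windows against 45.2% of all. The GATA motif AGATAA was in the Tek window, 36 bases after the start, and in 11.2% of all windows. ACAATG, a SOX motif, and GTAAACA, a FOX motif, were in 0 of the 5 and in 12.6% and 3.65% of all. Both strands were searched for all of these, none of the matches overlapped, and the Cldn5 window held no match to any of them.

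At day 14 all 10 endothelial genes had a mean ratio below 0. The tight junction gene Cldn5 had the lowest, followed by Ramp2 and Tie1, with mean ratios 1.73-fold to 1.91-fold below parity, and the other 7 lay between 1.14-fold and 1.42-fold below. Of all genes, 49.7% had a fitted mean below 0. None of the 10 passed the test in the fit of all 8 arrays, and Cldn5, Ramp2 and Tie1 passed it when day 14 was fitted alone. At day 5 all 10 means were again below 0, where 50.3% of all genes were, but the arrays disagreed with each other and 0 of the 10 passed in either fit. The heat map of the 10 genes shows each array with and without the part of the ratio that followed the dye.

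**Figure D1:**
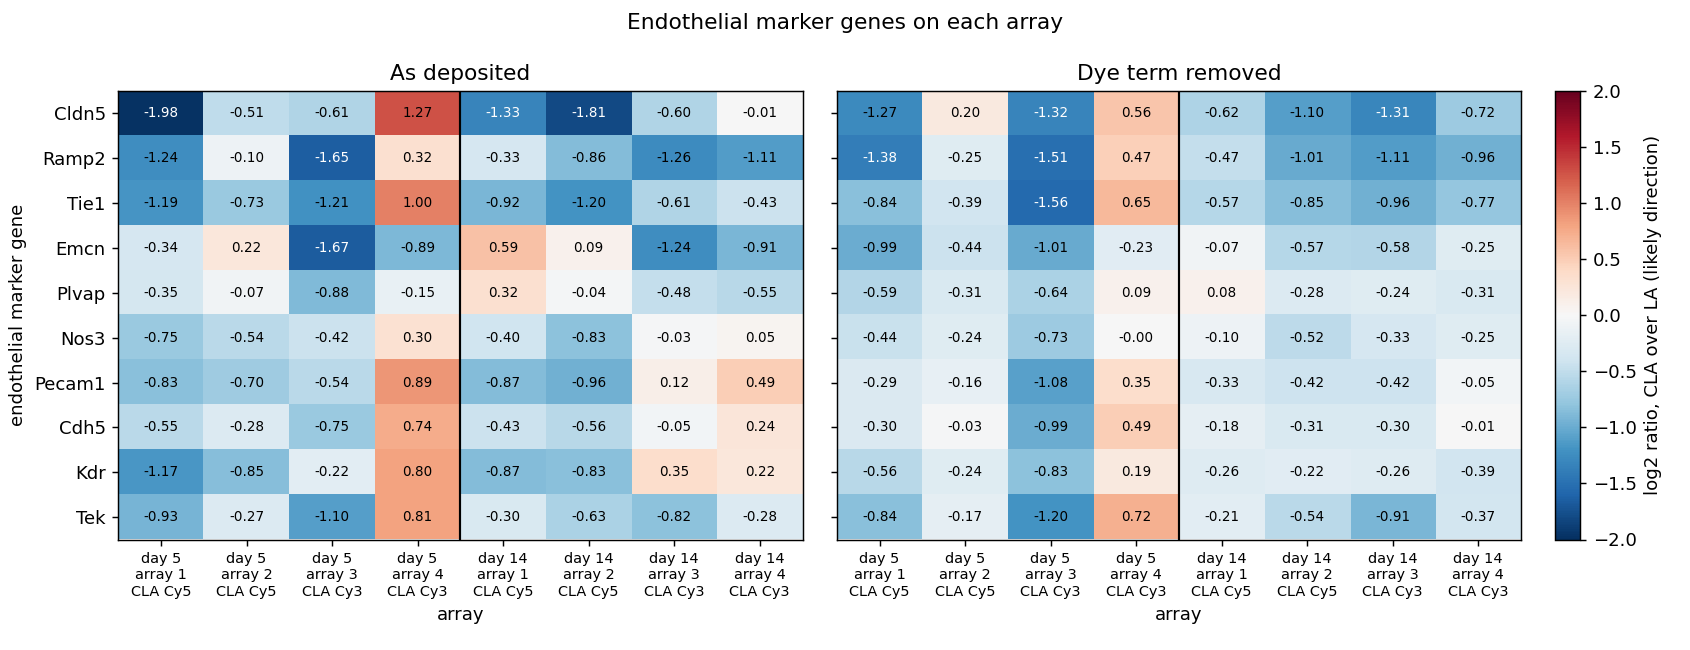
Log2 ratio (colour, CLA over LA) of the 10 endothelial marker genes (rows) on each of the 8 arrays (columns), as deposited on the left and with the fitted dye term removed on the right. Array 4 of day 5 stands out with 8 of 10 genes above 0, while on the day 14 arrays at most 1 gene lies above 0 once the dye term is removed.

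The dye term is the part of a gene's ratio that changes sign with the dye carried by CLA, estimated over all 8 arrays. It was past the threshold (limma, adjusted p under 0.05) for 5 of the 10 genes, against 34.2% of all genes. It was negative, that is lower where CLA was in Cy5, for Cldn5 (−0.71 ± 0.23, SE), Kdr (−0.61), Pecam1 (−0.54) and Nos3 (−0.30). It was positive for Emcn, at 0.66 ± 0.11. This count of 5 was not stable: it was 2 (Kdr and Emcn) without any single array of day 14 or without array 1 or 2 of day 5, 7 without array 3 of day 5, 4 without array 4 of day 5 and 8 with array weights. The count over all genes moved too, from 3043 positive and 2607 negative in the main fit. In the fits that gave 2 it was 2032 to 2566 positive and 1536 to 2151 negative. It was 3558 and 3473 without array 3 of day 5, 3276 and 2646 without array 4, and 3920 and 3702 with array weights. Because each day held both dye orientations equally, the day means are the same with and without this term, and values per array are given below with it removed unless said otherwise. The same holds for the SDs, which can understate the spread because the term was fitted to the same 8 arrays.

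Cldn5, which encodes the claudin that seals tight junctions between endothelial cells, read −0.62, −1.10, −1.31 and −0.72 on arrays 1 to 4 of day 14. On day 5 it read −1.27, 0.20, −1.32 and 0.56. All day 14 arrays were thus below 0, whereas the day 5 arrays lay on both sides and spanned the whole day 14 range. As deposited, the day 14 values were −1.33, −1.81, −0.60 and −0.01 and the day 5 values −1.98, −0.51, −0.61 and 1.27. The mean was −0.94 ± 0.32 (SD, n = 4) at day 14 and −0.46 ± 0.98 (SD, n = 4) at day 5. As deposited these SDs were 0.79 and 1.33.

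Cdh5 encodes VE-cadherin, the adhesion protein of endothelial adherens junctions. It read −0.18, −0.31, −0.30 and −0.01 at day 14 and −0.30, −0.03, −0.99 and 0.49 at day 5. Its means, −0.20 ± 0.14 (SD, n = 4) and −0.21 ± 0.62 (SD, n = 4), were the closest to 0 of the 10 genes at day 5 and the second closest at day 14. Pecam1, the platelet endothelial adhesion molecule that is also carried by platelets and some leukocytes, read −0.33, −0.42, −0.42 and −0.05 at day 14. At day 5 it read −0.29, −0.16, −1.08 and 0.35. Pecam1 and Cdh5 varied together across the arrays, and both had their single high value on array 4 of day 5.

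Among the receptor kinases, Tie1 is an orphan receptor that modulates angiopoietin signalling. It read −0.57, −0.85, −0.96 and −0.77 at day 14, and −0.84, −0.39, −1.56 and 0.65 at day 5. The day 14 arrays had an SD of 0.16 (n = 4) around their mean of −0.79, and the day 5 arrays an SD of 0.93 (n = 4) around −0.53. Tie1 was below 0 on all 4 arrays of day 14 as deposited too, at −0.92, −1.20, −0.61 and −0.43. Tek, the angiopoietin receptor TIE2, read −0.21, −0.54, −0.91 and −0.37 at day 14 and −0.84, −0.17, −1.20 and 0.72 at day 5. Its day 5 array 4 was the highest value of any of the 10 genes on any array.

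Kdr encodes the main signalling receptor for VEGF-A. It had the narrowest spread of the set at day 14, with −0.26, −0.22, −0.26 and −0.39 (mean −0.28, SD 0.07, n = 4). As deposited, though, it was −0.87 and −0.83 on the arrays with CLA in Cy5 and 0.35 and 0.22 on those with CLA in Cy3, so that closeness arises only after removal of a dye term of −0.61. At day 5 Kdr read −0.56, −0.24, −0.83 and 0.19.

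Ramp2 pairs with the receptor Calcrl to make the adrenomedullin receptor of vessels. It read −0.47, −1.01, −1.11 and −0.96 at day 14 and −1.38, −0.25, −1.51 and 0.47 at day 5. As deposited, the day 14 values were −0.33, −0.86, −1.26 and −1.11, so every day 14 array was below 0 either way. Its mean was −0.89 ± 0.28 (SD, n = 4) at day 14 and −0.67 ± 0.95 (SD, n = 4) at day 5.

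Nos3, the endothelial nitric oxide synthase, read −0.10, −0.52, −0.33 and −0.25 at day 14 and −0.44, −0.24, −0.73 and −0.00 at day 5. It was 1 of only 2 genes of the set below 0 on all 4 arrays of day 5. The other was Emcn, which encodes endomucin, a sialic-acid-rich glycoprotein of capillary and venous endothelium. Emcn read −0.99, −0.44, −1.01 and −0.23 at day 5 and −0.07, −0.57, −0.58 and −0.25 at day 14.

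Emcn depended most on the dye term in the positive direction. As deposited it read −0.34, 0.22, −1.67 and −0.89 at day 5 and 0.59, 0.09, −1.24 and −0.91 at day 14. It was therefore above 0 on 3 of the 4 arrays with CLA in Cy5 and below 0 on all 4 with CLA in Cy3. Plvap encodes the protein of the diaphragms that span caveolae and the pores of fenestrated capillaries. It read −0.59, −0.31, −0.64 and 0.09 at day 5 and 0.08, −0.28, −0.24 and −0.31 at day 14, the last set having the mean closest to 0 of the 10 genes at that day (−0.18 ± 0.18, SD, n = 4).

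**Figure D2:**
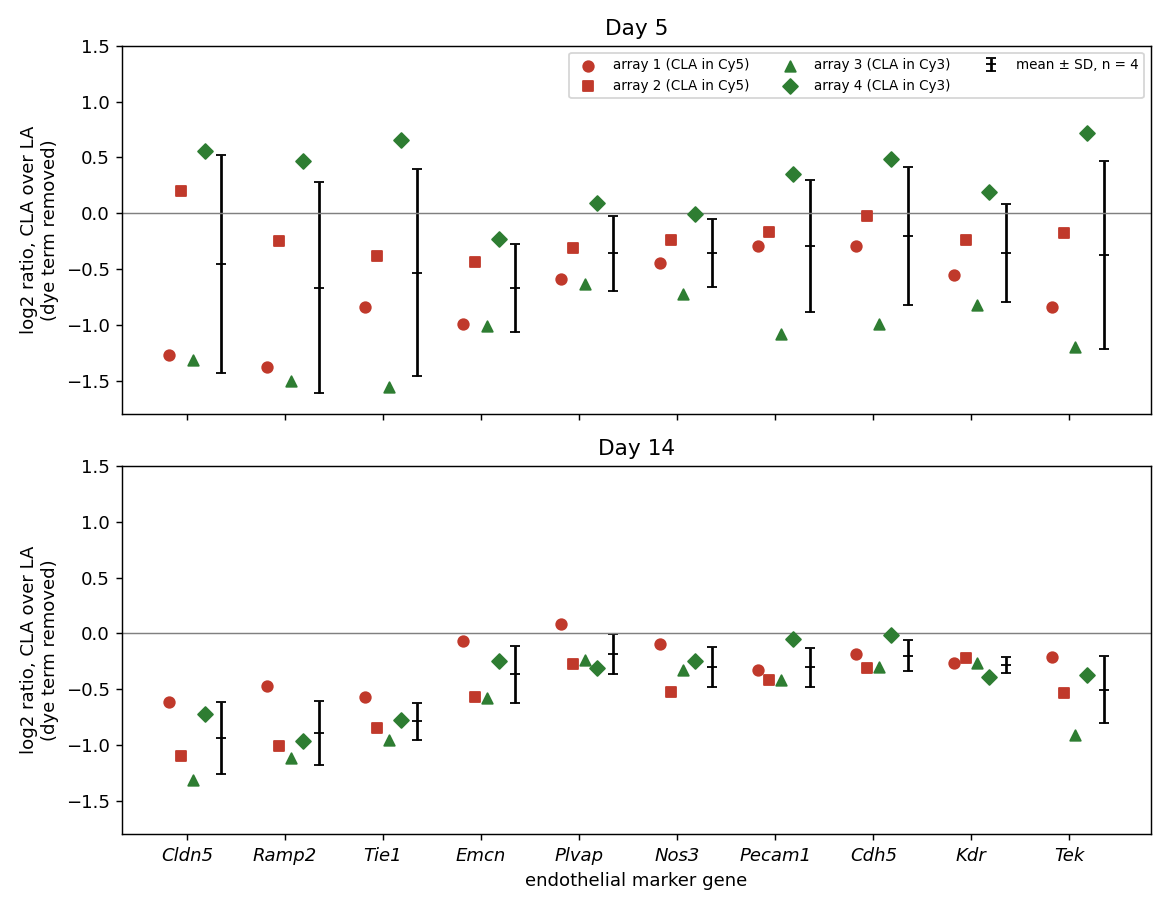
Log2 ratio (y axis, CLA over LA, dye term removed) of each endothelial marker gene (x axis) on the 4 arrays of day 5 (top) and day 14 (bottom), with the mean and SD of the 4 arrays as black bars. The SD bars are longer at day 5 (0.31 to 0.98) than at day 14 (0.07 to 0.32), and array 4 is the highest and array 3 the lowest for all 10 genes at day 5. As deposited, the SDs were 0.36 to 1.33 at day 5 and 0.26 to 0.85 at day 14.

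As deposited, 4 of the 10 genes were below 0 on all 4 day 14 arrays, against 7.06% of all genes, and 1 of the 10 at day 5, against 3.24%. With the dye term removed it was 9 of 10 at day 14, all but Plvap, against 15.7% of all genes. At day 5 it was then 2 of 10, against 13.1% of all genes, and 7 more genes were below 0 on 3 of the 4 arrays. The median SD of the 10 genes was 0.60 at day 5 and 0.18 at day 14. As deposited it was 0.84 and 0.41. The SD was then larger at day 14 than at day 5 for Emcn (0.85 against 0.81) and Plvap (0.41 against 0.36). For every gene the range of the day 5 arrays overlapped that of the day 14 arrays.

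The 4 arrays of day 5 fell in the same order at their extremes for the whole set. All 10 genes had their lowest day 5 value on array 3 and their highest on array 4. The median of the 10 genes was −0.71, −0.24, −1.05 and 0.41 on arrays 1 to 4 of day 5, with 10, 9, 10 and 2 genes below 0. At day 14 the medians were −0.24, −0.53, −0.50 and −0.34, with 9, 10, 10 and 10 genes below 0, so no single array of day 14 stood apart in this way.

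Adipocyte genes followed the same arrays. The median of 13 measured adipocyte markers was −1.39, 0.04, −1.81 and 0.82 on arrays 1 to 4 of day 5 and −0.44, −0.98, −1.28 and −0.69 at day 14. Adipoq, the gene of the adipocyte hormone adiponectin, read −2.64, 0.06, −2.19 and 1.06 at day 5. Ucp1, the uncoupling protein of thermogenic fat cells, read 1.98, −0.28, 1.94 and −0.43 on those arrays and 3.24 to 3.69 on the 4 arrays of day 14. Arrays 1 and 3 of day 5 thus had the lowest endothelial and the lowest adipocyte medians of that day, and arrays 2 and 4 the highest of both. As deposited, the SD of the ratios over all genes was largest on array 3 (0.93) and array 4 (0.56) of day 5. It was 0.40 and 0.35 on arrays 1 and 2 of that day and 0.36 to 0.54 on the day 14 arrays. The part of the adipocyte shift and of array quality in the endothelial ratios was not tested.

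In the fit of all 8 arrays, which shares 1 estimate of the spread between the days, limma called 0 of the 10 genes at day 14. Over all 16504 genes it called 0% there, and the smallest adjusted p of any gene was 0.179. The fitted ratios ran from −0.94 ± 0.33 (SE) for Cldn5, −0.89 ± 0.32 for Ramp2 and −0.79 ± 0.30 for Tie1 to −0.20 ± 0.21 for Cdh5 and −0.18 ± 0.14 for Plvap. Adjusted p-values of the 10 ranged from 0.43 to 0.84. Cldn5 (unadjusted p = 0.023), Ramp2 (0.024) and Tie1 (0.033) had an unadjusted p under 0.05 in the lower direction, 3 of 10 against 5.53% of all genes. In the order of the 10 ratios, each of the 9 pairs of neighbours lay within 1 SE of each other, so the order itself is not resolved.

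The fit of the 4 day 14 arrays alone leaves out the wider spread of day 5. It had been planned as an alternative, and it had the same day 14 means with smaller errors. There Cldn5 fell by 0.94 ± 0.13 (SE; 1.91-fold, limma adjusted p = 0.047), Ramp2 fell by 0.89 ± 0.11 (1.85-fold, adjusted p = 0.038) and Tie1 fell by 0.79 ± 0.08 (1.73-fold, adjusted p = 0.031). That made 3 of 10 genes called lower and 0 called higher, against 1.04% of all genes called lower. In that fit 8 of the 10, all but Cdh5 (−0.20 ± 0.08) and Plvap (−0.18 ± 0.09), had an unadjusted p under 0.05 in the lower direction, against 11.7% of all genes. With all 8 arrays weighted by their quality, Ramp2 (adjusted p = 0.045) and Tie1 (0.037) were called lower at day 14, against 2.22% of all genes, and Cldn5 had an adjusted p of 0.056. The day 5 ratios of that weighted fit ran from −0.52 for Emcn to −0.05 for Cldn5 and −0.001 for Cdh5, with a median of −0.26. It called 0 of all genes at day 5. Array 2 of day 5 had a weight of 3.13 there, and the other arrays of that day 0.18 to 0.64.

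The ratios of Cldn5, Ramp2 and Tie1 stayed well below 0 when single arrays of day 14 were left out, but most of their calls did not hold. Fitted to that day alone, they ran from −0.79 to −1.08 for Cldn5, from −0.76 to −1.02 for Ramp2 and from −0.72 to −0.86 for Tie1. With that day fitted alone, 0 of the 10 genes were called without array 1, without array 2 or without array 3, and only Cldn5 was called without array 4 (adjusted p = 0.049, with Tie1 at 0.051 and Ramp2 at 0.063). Over all 16504 genes these fits called 0, 0, 50 and 104 lower, without arrays 1 to 4 in turn. The loss of calls was thus not particular to the 10 genes. The day 14 fit without a dye term called 0, with adjusted p-values of 0.67 for Cldn5 and 0.40 for Ramp2 and Tie1. Over all genes it called 0 lower. If arrays 3 and 4 were turned in sign, the all-array day 14 fit gave −0.63 for Cldn5, −0.27 for Tie1 and 0.29 for Ramp2. None of these was called, and Emcn was called higher at 0.71 (limma adjusted p = 0.044). That setting called many genes at day 14, 1176 of 16504 higher and 913 lower.

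**Figure D3:**
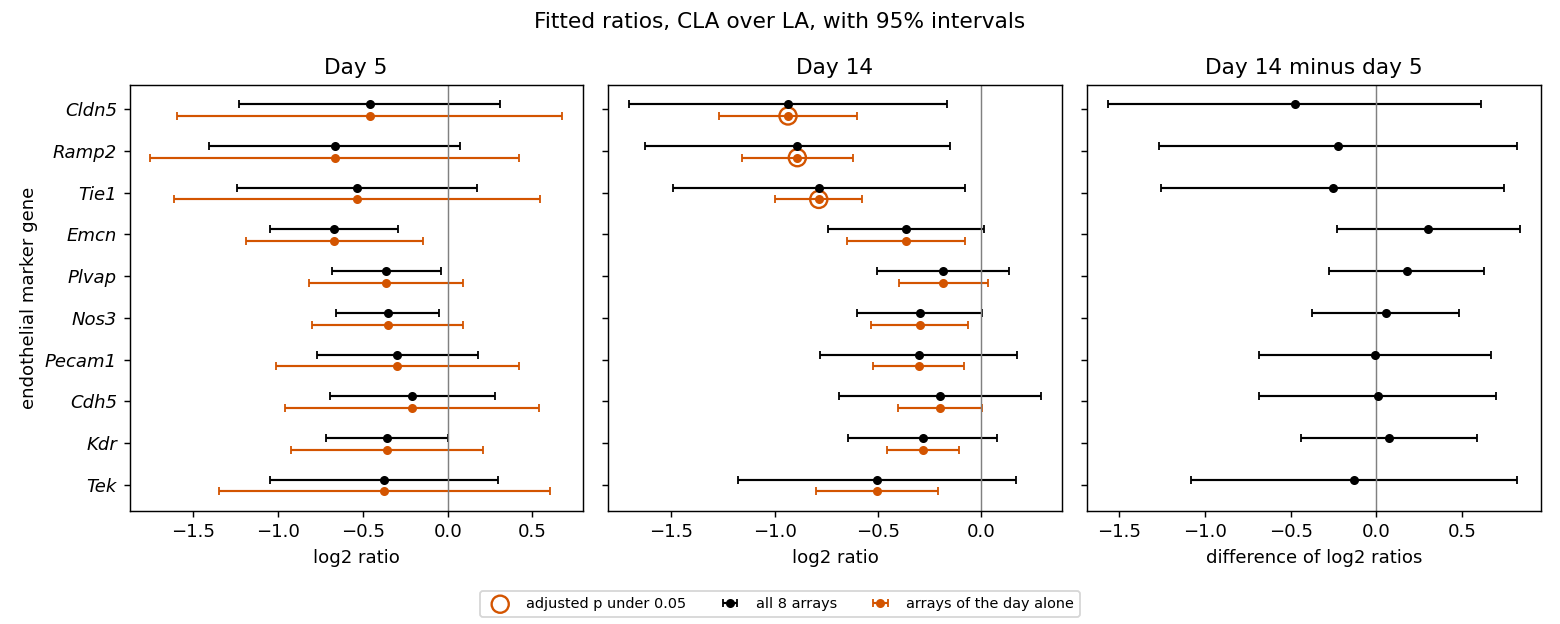
Fitted log2 ratios (x axis) with 95% intervals for the 10 endothelial marker genes at day 5, at day 14 and for the difference, from the fit of all 8 arrays (black) and of the arrays of the day alone (orange), circled where the adjusted p was under 0.05. The circled genes are Cldn5, Ramp2 and Tie1 at day 14 in the fit of that day alone, and every interval of the difference crosses 0.

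At day 5 the fitted ratios ran from −0.67 ± 0.16 (SE) for Emcn and −0.67 ± 0.32 for Ramp2 to −0.21 ± 0.21 for Cdh5, with a median of −0.37. None of the 10 was called in the fit of all arrays, where limma called 0% of all genes, and adjusted p-values ran from 0.28 to 0.67. Emcn (unadjusted p = 0.0037, limma adjusted p = 0.28), Nos3 (0.028 and 0.33) and Plvap (0.031 and 0.34) had an unadjusted p under 0.05, which was the case in the lower direction for 9.17% of all genes. They were not the 3 of day 14, and they were the members with the smallest SDs at day 5 together with Kdr (−0.36 ± 0.16). When day 5 was fitted alone 0 were called and the smallest adjusted p was 0.81.

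Array 4 of day 5 set much of this. Without it the median of the 10 genes in the all-array fit went from −0.37 to −0.69, and all 10 had an unadjusted p under 0.05 in the lower direction, against 14.6% of all genes in that fit, though 0 were called (adjusted p 0.11 to 0.15). Without array 3 the median was −0.15, and Pecam1 (0.017) and Cdh5 (0.11) lay above 0. With the day 5 arrays alone and without array 4, a fit chosen after seeing the data, Tie1 was called lower. Over all 16504 genes that fit called 108 lower and 981 higher, where the fit with array 4 kept called 0.

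The change between the days was tested as day 14 minus day 5. It called 0 of the 10 genes and 0% of all genes, and 0 of the 10 had an unadjusted p under 0.05. The differences ran from −0.48 ± 0.47 (SE) for Cldn5 to 0.30 ± 0.23 for Emcn, 5 genes below 0 and 5 above, with a median of −0.00 and adjusted p-values of 0.89 to 1.00. The 95% intervals reached from 0.43 on either side of the estimate for Nos3 to 1.09 for Cldn5. The interval for Cldn5 ran from −1.56 to 0.61 and so held differences as large as its day 14 ratio.

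The 10 genes varied together across the arrays. With the dye term removed, Pearson's r between pairs of the 10 genes over the 8 arrays ran from 0.63 (Cldn5 and Plvap) to 0.99 (Pecam1 and Cdh5), with a median of 0.85 over 45 pairs. As deposited it ran from −0.69 to 0.95 with a median of 0.63, since the dye terms of the genes have different signs. These points share the array, its normalization and any shift in cell makeup, and 2 of the 8 arrays, 3 and 4 of day 5, lie at the extremes. The r of a single gene with the mean of the other 9 ran from 0.75 (Emcn) to 0.98 (Tek). Without those 2 arrays it ran from 0.44 for Pecam1 to 0.94 for Ramp2.

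Many other genes ran along with them. An r with the mean of the same 9 genes at least as high as that of Emcn was seen for 2130 of 16494 genes outside the set, or 12.9%, and for Tek this was 38 genes. The 5 most like the mean of all 10 were Tmem120b (r = 0.996, Spearman's rho 1, and r = 0.98 without the 2 arrays named), Gpt (r = 0.993), Net1 (0.993), Foxo1 (0.993) and Amotl2 (0.990). Of these, Gpt encodes an alanine aminotransferase and Foxo1 a transcription factor restrained by insulin signalling. Tmem120b read −0.86, −0.18, −1.25 and 0.59 at day 5 and −0.26, −0.54, −0.70 and −0.48 at day 14. The mean of the 10 endothelial genes read −0.75, −0.20, −1.09 and 0.33, then −0.27, −0.58, −0.64 and −0.41. The resemblance over so few arrays is a description of these libraries.

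Other genes of the vessel wall were read from lists of 116 genes, 112 of them measured. At day 14, 73 lay below 0 with a median of −0.07, and 27 had an unadjusted p under 0.05 in the lower direction and 4 in the higher, where the all-array fit called 0. At day 5, 84 lay below 0 with a median of −0.16, with 22 lower and 2 higher at an unadjusted p under 0.05. Over all genes, 49.7% lay below 0 at day 14 and 50.3% at day 5. An unadjusted p under 0.05 in the lower direction was seen for 5.53% and 9.17% of them. The medians of all genes were 0.00 at both days. The medians of the 10 endothelial markers, −0.34 and −0.37, were thus further below 0 than those of the wider vessel genes, a difference that was not tested. The 10 genes and the lists were chosen with earlier results of these data known, so no conclusion can be drawn from this difference. With the day 14 arrays alone 10 of the 112 were called lower and 0 higher, against 1.04% of all genes called lower.

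Among VEGF ligands and receptors, 5 of 9 genes lay below 0 at day 14 and 7 of 9 at day 5, with 0 called. Flt1, the second VEGF-A receptor beside Kdr, stood at −0.68 ± 0.27 (SE, fit of all arrays) at day 14 and −0.42 ± 0.27 at day 5. Vegfa, the ligand of both, stood at −0.17 ± 0.13 at day 14 and −0.45 ± 0.13 at day 5 (unadjusted p = 0.0095, limma adjusted p = 0.28). Vegfc, a ligand of lymphatic vessels, was at −0.08 ± 0.14 and −0.28 ± 0.14.

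Of the 8 measured partners of Tek and Ramp2, 3 lay below 0 at day 14. Ptprb, the phosphatase VE-PTP that acts on TIE2 and VE-cadherin, fell by 0.89 ± 0.10 with the day 14 arrays alone (adjusted p = 0.034). Calcrl, the receptor that Ramp2 joins, did not share the ratio of its partner at day 14: it stood at 0.03 ± 0.11 in the fit of all arrays, beside −0.89 ± 0.32 for Ramp2, a contrast between genes that was not tested. At day 5 Calcrl was at −0.34 ± 0.11 (adjusted p = 0.29). Ramp1, which joins Calcrl in the receptor of the calcitonin gene-related peptide, was at 0.39 ± 0.15 at day 14 and −0.06 ± 0.15 at day 5.

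Around nitric oxide and caveolae, 8 of 13 genes lay below 0 at day 14 and 10 of 13 at day 5. Caveolae are membrane pits abundant in both endothelial cells and adipocytes. Their coat genes were among those called with the day 14 arrays alone: Cav2 fell by 1.06 ± 0.09 (SE, adjusted p = 0.022). Cavin2 fell by 0.80 ± 0.12 and Cav1 by 0.74 ± 0.08, both named here after their values were seen. Gucy1b1, a subunit of the guanylate cyclase that senses nitric oxide, was at −0.49 ± 0.16 in the fit of all arrays (limma adjusted p = 0.39) at day 14. At day 5 it was at −0.37 ± 0.16 (adjusted p = 0.37). Ddah2, which clears an inhibitor of nitric oxide synthases, was at −0.09 ± 0.10 at day 14. It was at −0.34 ± 0.10 at day 5 (unadjusted p = 0.010, limma adjusted p = 0.28).

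Junction genes lay below 0 for 8 of 10 at both days with 0 called. Tjp1, the scaffold ZO-1 of tight junctions in many cell types, stood at −0.43 ± 0.10 (SE) at day 14 and −0.33 ± 0.10 at day 5. Jam2, a junctional adhesion molecule of endothelium, was at −0.35 ± 0.09 and −0.37 ± 0.09. Icam2, an adhesion molecule of resting endothelium, was at −0.83 ± 0.17 at day 5 (unadjusted p = 0.0012, limma adjusted p = 0.28) and at −0.32 ± 0.17 at day 14, and it was below 0 on all 8 arrays with the dye term removed.

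Notch and arteriovenous genes lay below 0 for 10 of 13 at each day. With the day 14 arrays alone 3 of them were called lower. Notch4, a Notch receptor of endothelium, fell by 0.66 ± 0.09 (SE, adjusted p = 0.043), Notch1 fell by 0.61 ± 0.08 (0.044) and Hey1, a target of Notch named here after its values were seen, fell by 0.67 ± 0.08. The ligand Jag2 stood at −0.16 ± 0.10 at day 14 and −0.34 ± 0.10 at day 5 in the fit of all arrays.

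Endothelial transcription factors lay below 0 for 10 of 13 at each day with 0 called in the fits of all arrays or of the day alone. Sox7, of the SOX family of vessel development, stood at −1.19 ± 0.25 (SE) at day 14 (unadjusted p = 0.0016, limma adjusted p = 0.25) and −0.84 ± 0.25 at day 5. Gata2, which acts in endothelial and blood-forming cells, stood at −0.50 ± 0.11 at day 14 and −0.42 ± 0.11 at day 5. Both had all 8 arrays below 0 with the dye term removed.

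Of 27 further endothelial surface and secreted genes, 18 lay below 0 at day 14 and 19 at day 5. Thbd, the thrombin receptor thrombomodulin, stood at −1.03 ± 0.35 (SE) and −1.07 ± 0.35 at days 14 and 5, and Cd34, shared with progenitor cells of fat, at −0.43 ± 0.18 and −0.62 ± 0.18. Mmrn2, a matrix protein of vessels, was at −0.43 ± 0.21 and −0.65 ± 0.21, and Edn1, the vasoconstrictor endothelin, at −0.30 ± 0.10 and −0.21 ± 0.10. The water channel Aqp1, named after its values were seen, was the 1 gene of this list called with the day 14 arrays alone, where it fell by 0.91 ± 0.09.

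Cells that surround the endothelium were read by 14 markers of pericytes and smooth muscle, 9 below 0 at day 14 and 11 at day 5. With the day 14 arrays alone Mcam, an adhesion molecule of pericytes and endothelium, fell by 1.10 ± 0.07 (SE, adjusted p = 0.020). Rgs5, a pericyte gene named after its values were seen, fell by 0.51 ± 0.07. Pdgfrb, the receptor that recruits pericytes, was at −0.73 ± 0.16 at day 5 and −0.09 ± 0.16 at day 14 in the fit of all arrays, Notch3 at −0.23 ± 0.10 and −0.38 ± 0.10, and Lmod1 of smooth muscle at −0.44 ± 0.09 and −0.16 ± 0.09.

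Lymphatic vessel markers, 5 of them measured, lay below 0 for 2 of 5 at day 14 and 3 of 5 at day 5, with 0 called. Mmrn1 of lymphatic endothelium stood at −0.59 ± 0.21 (SE) at day 5 and 0.24 ± 0.21 at day 14, and Reln at 0.26 ± 0.10 and −0.01 ± 0.10. Pdpn, which other stromal cells express too, stood at −0.04 ± 0.19 and −0.30 ± 0.19.

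**Figure D4:**
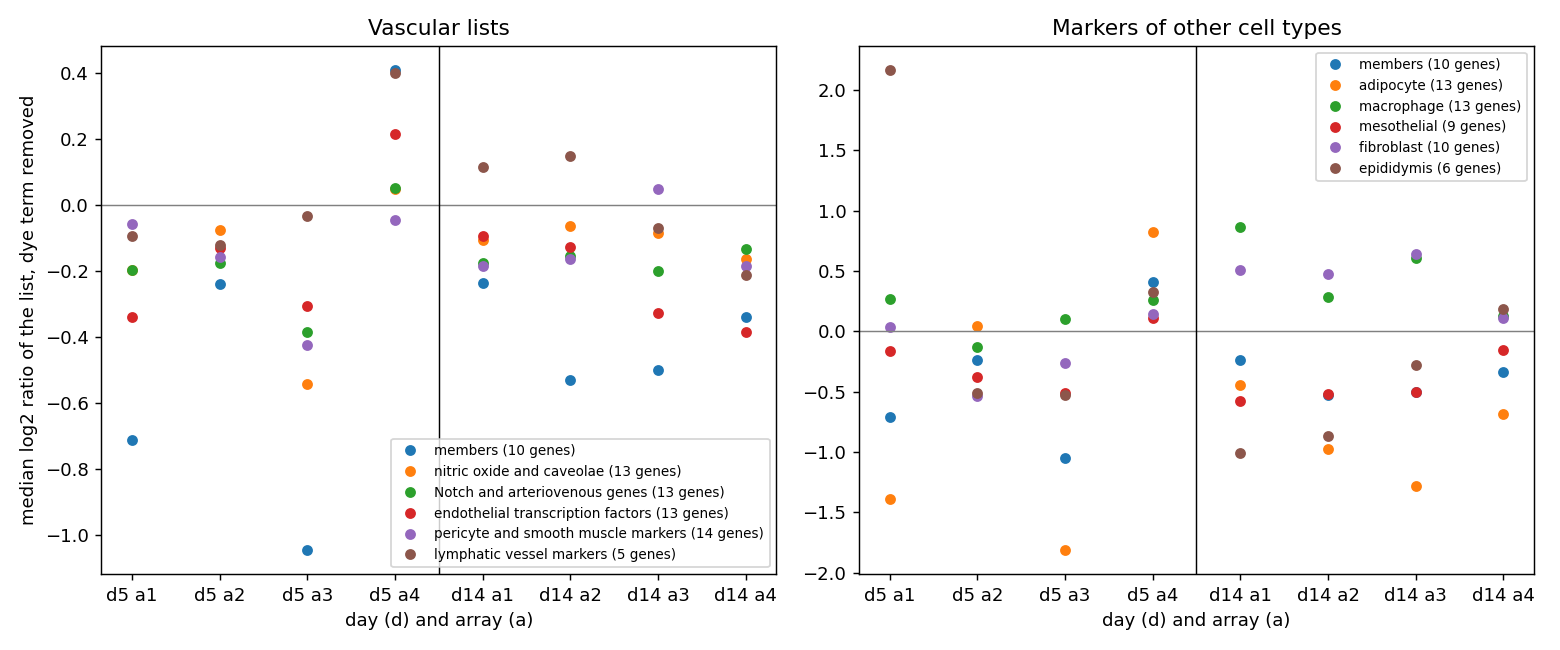
Median log2 ratio (y axis, CLA over LA, dye term removed) of gene lists on each of the 8 arrays (x axis), vascular lists on the left and markers of other cell types on the right, with the 10 endothelial marker genes as blue points in both panels and different y scales. On array 4 of day 5 the endothelial median is 0.41 and the adipocyte median 0.82, and on arrays 1 and 3 they are −0.71 and −1.05 against −1.39 and −1.81.

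Markers of other cell types were away from 0 in the same comparison. At day 14, 11 of 13 adipocyte markers lay below 0 with a median of −0.95. With the day 14 arrays alone 5 of them (Nnat, Car3, Adipoq, Plin4 and Cidec) were called lower, against 1.04% of all genes. The fit of all arrays called 0 adipocyte markers there. Mesothelial markers had a median of −0.44, and 9 of 9 were below 0. Macrophage markers lay on the other side, with 12 of 13 above 0 and a median of 0.45, as did 7 of 10 fibroblast markers, with a median of 0.47. At day 5 the medians were −0.42 for adipocytes, −0.18 for mesothelium, 0.08 for macrophages and −0.14 for fibroblasts. The part of these lists in the endothelial ratios was not tested.

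Blood and neighbouring tissue were read in the same way. The median of 4 red blood cell genes was −0.23 at day 14 and 0.00 at day 5, and that of 8 T and B cell genes 0.02 and −0.12. The median of 6 epididymis genes was −0.47 at day 14 and 0.25 at day 5, and on array 1 of day 5 it was 2.17. On that array the endothelial median was −0.71, between those of arrays 2 and 3.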

How the data were processed

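Gene expression was measured on 8 arrays with 2 channels in 2 groups, day 5 and day 14. The deposited table holds 1 value per probe and array, taken as log10 ratios that the authors had centred (column medians from −0.018 to 0.011). Scanner, background correction and normalization were not given in the sources used, and with no intensities no filter on dim spots was possible and the number of arrays limits the precision. Values were multiplied by 3.32 to log2 and used as deposited. Of the probes, 18218 had 1 gene symbol, 16 several and 4159 none. A gene's value was the mean of its probes.

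The model was limma's lmFit and eBayes (limma 3.58.1, R 4.3.3) on the log2 ratios of the 8 arrays, with a mean per day and a dye term. Genes with a p under 0.05 after Benjamini-Hochberg adjustment over all 16504 genes were called. The code was tested on simulated data. Alternatives covered the dye term, sign, scale, weights, centring, arrays used and the replicate block. The members and lists were chosen with earlier results of these data known. Genes named from the other lists were the 2 with the smallest unadjusted p at each day, beside the 5 genes most like the mean of the members. Outside this rule, Cavin2, Cav1, Hey1, Aqp1 and Rgs5 and the adipocyte genes Nnat, Car3, Adipoq, Plin4, Cidec and Ucp1 were named after their values were seen. Array numbers repeat between days and go with the dye orientation, and same-numbered arrays were not taken as pairs. With the day means and the dye term removed, residuals of same-numbered arrays of the days were correlated over all genes. Pearson's r was 0.31, 0.73, 0.39 and 0.72 for arrays 1 to 4. What same-numbered arrays share beyond the dye was not tested. All sample columns were used.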

Additional observations from a re-analysis of the deposited data

How the results depend on the processing

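In the fit of all 8 arrays 0 of the 10 endothelial genes were called at day 5, at day 14 or for the difference. This held for each array left out in turn, no dye term, a dye term per day, centring and equal spread. It also held for probes in place of genes and for the replicate block in place of the dye term. The block gave medians of −0.37, −0.34 and −0.00, and equal spread gave −0.47, −0.39 and 0.043. Each array left out in turn gave −0.69 to −0.15 at day 5, −0.43 to −0.29 at day 14 and −0.31 to 0.27 for the difference. The numbers called lower were 3 at day 14 with the arrays of the day alone, 2 with array weights, and 0 to 1 at either day when arrays of the day alone were left out in turn, an alternative chosen after seeing the data, as was the day alone without a dye term. Over all genes 172 and 366 were called lower in the first and second of these fits. With arrays of the day alone left out in turn, 0 to 104 were called lower at day 14 and 0 to 108 at day 5. With arrays 3 and 4 turned, 1 gene was called lower at day 5 (Kdr) and 1 higher at day 14 (Emcn). Over all 16504 genes that setting called 869 lower and 1271 higher at day 5, and 913 lower and 1176 higher at day 14.

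The number with an unadjusted p under 0.05 in the lower direction was 3 at day 5. It was 0 without a dye term with all arrays or with the day alone, 1 with arrays turned or with the day alone, 6 with equal spread and 0 to 10 without each array in turn. Over all 16504 genes the number was 1514 in the main fit, 196 and 78 without a dye term, and 2469 with arrays turned. It was 574 with the day alone, 689 with equal spread and 52 to 2414 without each array in turn. The 3 at day 14 became 8 with the day alone or with array weights, 6 with equal spread and 0 to 9 without each array in turn. Over all genes the 912 at day 14 became 1923 with the day alone and 2026 with array weights. They became 984 with equal spread and 512 to 1938 without each array in turn. For the difference, 1 gene had such a p with array weights, against 0. Values taken as log2 gave a day 14 median of −0.10.

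With arrays 3 and 4 turned, the sign reversed at day 5 for Emcn (0.61) and Plvap (0.15), and at day 14 for Emcn (0.71), Plvap (0.33), Ramp2 (0.29) and Tek (0.041). Leaving out arrays at day 5 gave −0.93 to 0.0092 for Cldn5, −1.09 to 0.021 for Tie1, −0.65 to 0.062 for Pecam1, −0.85 to 0.11 for Tek and −0.58 to 0.16 for Cdh5. The lowest value came without array 4 and the highest without array 3, both with the day alone.

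The difference between days, with a median near 0 but Cldn5 at −0.48, changed sign most often. Turned arrays gave 0.16 for Cldn5, 0.16 for Tie1, 0.30 for Ramp2, 0.27 for Tek, −0.023 for Nos3 and −0.091 for Cdh5. Array weights gave −0.18 for Cdh5, −0.021 for Kdr and −0.044 for Nos3, centring −0.012 for Cdh5 and equal spread 0.062 for Pecam1. Leaving out arrays gave −0.56 to 0.23 for Ramp2, −0.67 to 0.22 for Tie1, −0.46 to 0.30 for Tek, −0.32 to 0.25 for Pecam1, −0.31 to 0.29 for Cdh5, −0.11 to 0.29 for Kdr and −0.095 to 0.19 for Nos3, lowest without array 3 and highest without array 4 of day 5. Apart from those 2 arrays, whose omission itself gives these ends, the cause was not tested.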
